A study of Mus musculus with 6 samples.

Results

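Homer1 circular RNAs (circRNAs) were examined in the striatum of mice that overexpress HuD. They were the 4 probes of the circRNA array that the study's list of HuD-bound circRNAs pairs with Homer1, out of 14236 circRNA probes, and each probe is listed with the back-splice junction of 1 circRNA. Striatal RNA was from 3 HuD-OE samples and 3 samples of wild type (WT) littermates, all from adult males of the C57BL6 strain, and each sample was hybridized to 1 array. The HuD transgene, tagged with myc, is driven in HuD-OE mice by the Camk2a promoter, which is active in forebrain neurons, and was absent from WT mice. The methods describe the transgenic line as backcrossed to C57BL/6J. Before labeling, the RNA was treated with RNAse R, an enzyme that removes linear RNA. In such tissue RNA, fewer cells of a type and less RNA per cell cannot be told apart.

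A circRNA forms when a downstream splice donor is joined back to an upstream splice acceptor, and the joined ends make a junction that the linear mRNA does not have. Homer1 encodes a scaffold protein of the excitatory postsynapse that links group I metabotropic glutamate receptors to Shank proteins and to calcium channels of internal stores. HuD, the product of Elavl4, is a neuronal RNA-binding protein that binds AU-rich and U-rich sequences and is known for stabilizing its target mRNAs.

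The junction sequences of the 4 circRNAs are shown because they tell which of the 4 measurements share sequence. They were taken from the study's list, 5′ to 3′, and capitals mark the run that 3 of them share.
mmu_circRNA_010239: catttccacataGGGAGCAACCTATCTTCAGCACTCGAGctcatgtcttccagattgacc
mmu_circRNA_19101: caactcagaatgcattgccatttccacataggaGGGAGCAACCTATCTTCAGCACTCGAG
mmu_circRNA_26702: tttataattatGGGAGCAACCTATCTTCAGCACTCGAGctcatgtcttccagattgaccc
mmu_circRNA_26706: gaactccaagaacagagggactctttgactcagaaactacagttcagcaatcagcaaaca
The shared run was 27 of 60 bases long. CircRNAs 010239 and 26702 had 48 bases in a row in common, and 010239 and 19101 had 28. Sequence 19101 matched 010239 over 39 bases with 3 extra bases between the matching stretches, and its listed span was also 3 bases longer. The longest run that 26706 shared with any of the others was 8 bases. Whether the printed probes are these 60 bases, and at which base donor and acceptor meet, is not given in the sources used here.

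All 4 circRNAs are listed on the plus strand of chromosome 13. CircRNA 010239 (exonic) spans chr13:93341755-93356079 and 19101 (intronic) spans chr13:93341753-93356080. CircRNA 26702 (intronic) starts at the same base as 010239 and runs 1568 bases further, over chr13:93341755-93357647. CircRNA 26706 (exonic) spans chr13:93387523-93393108 and overlaps none of the others. The list names no genome build for these positions. All 4 spans lie inside Homer1 in the GRCm38.p6 annotation, as do the spans of 686 of 689 probes inside their listed gene. The patterns ATTTA (AU-rich) and TTTNTTT (U-rich) were searched on both strands of the junctions. Neither occurred in the 4 sequences, and they occurred in 8.21% and 4.56% of the 658 junctions of the list. On the strand as written alone, they occurred in 4.86% and 1.06% of those junctions. The 60 bases are a small part of each circRNA, so this says nothing about the rest of it.

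**Figure D1:**
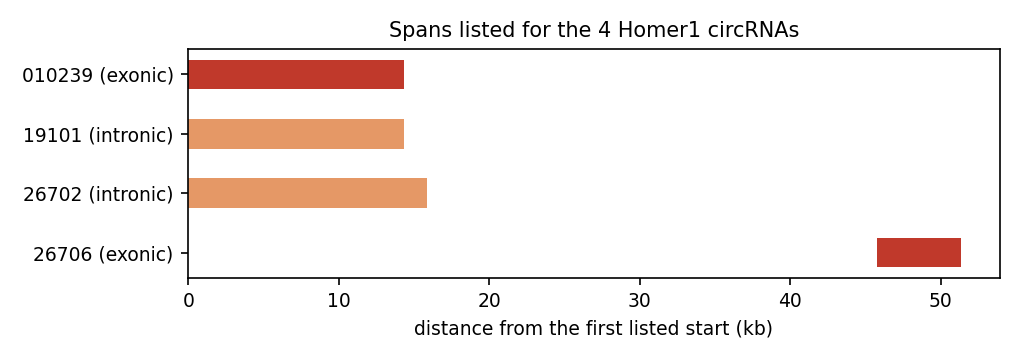
Listed spans of the 4 Homer1 circRNAs, as bars along the distance from the first listed start in kb, with darker bars for the exonic class and lighter bars for the intronic class. The bars of 010239, 19101 and 26702 begin within 2 bases of each other, and that of 26706 lies further downstream without overlap.

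The arrays differed in brightness. The 75th percentile of the processed intensity, which is the spot brightness after background correction, lay between 77.7 and 127 on 5 arrays and was 43.4 on WT 3. That array was read in a scan of its own, and 60.3% of its circRNA probes were well above background, against 87.2% to 95.7% on the others. All HuD-OE arrays and WT 1 had 1 slide row as their position and the other WT arrays another. Whether WT 3 was on the same slide as the others was not examined. Of the listed markers of striatal projection neurons, Foxp1, Bcl11b and Arpp21 had a paired probe, and each had at least 1 probe well above background on all 6 arrays. So did Slc1a2, an astrocyte marker, and no listed marker of oligodendrocytes or microglia had a paired probe. No table used here pairs a probe with Elavl4, so the transgene was not checked on these arrays.

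All 4 Homer1 circRNAs were detected on all 6 arrays, as spots well above background. The processed intensity of 010239 was 928, 104 and 1008 on HuD-OE 1, 2 and 3 and 809, 540 and 93.6 on WT 1, 2 and 3. That of 26706, the dimmest, was 66.5, 41.0 and 80.9 in HuD-OE and 57.0, 35.6 and 9.71 in WT. The dimmest of these spots, on WT 3, compares with 7.05 for the dimmest circRNA spot still counted as well above background on that array. In both genotypes the mean brightness fell in the order 010239, 19101, 26702 and 26706. Brightness also depends on the sequence of the probe, so this is not an order of abundance.

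For comparison between arrays, the log2 processed intensity minus the array's 75th percentile was used as the level. CircRNA 26706 had levels of -0.90, -0.92 and -0.39 in HuD-OE and of -1.08, -1.82 and -2.14 in WT. The genotypes did not overlap, although HuD-OE 2 and WT 1 lay close together. The mean level of HuD-OE was -0.74 ± 0.30 (SD, n = 3), and WT had a mean of -1.68 ± 0.54 (SD, n = 3).

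The log2 fold change of 26706 was 0.94 (SE 0.40, 95% interval 0.02 to 1.86), a fold of 1.92. It was past both limits used here, which were a fold of 1.5 and, before adjustment, a limma p of 0.05. The adjusted p over all 13460 tested circRNAs was 0.864, equal to the smallest of any circRNA, and none passed 0.05, while 399 had an unadjusted p under that value. Before adjustment limma gave p = 0.046 and the exact permutation test p = 0.1, two-sided, the smallest that 3 against 3 arrays allow. Of all tested circRNAs, 2.49% were higher past both limits, 0.475% were lower, and 7.33% had all HuD-OE arrays above all WT arrays. None of the 73 probes in the authors' tables of circRNAs changed in this comparison is of Homer1. With a block for slide row, which leaves only WT 1 to compare with, the log2 fold change of 26706 was 0.34. Without WT 3, at a log2 fold change of 0.71, 26706 was not past both limits. It was also not past them without HuD-OE 1, 2 or 3 or WT 2, nor by the methods' unpaired test, with the replicate number as a block, after median centring, with a percentile over detected probes alone, or after normexp with an offset of 50, where the log2 fold change was 0.32.

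CircRNA 010239 had levels of 2.90, 0.43 and 3.25 in HuD-OE and of 2.75, 2.10 and 1.13 in WT. HuD-OE 1 and 3 were the highest of the 6 arrays and HuD-OE 2 the lowest, so the genotypes overlapped. The log2 fold change was 0.20 (SE 0.77, 95% interval -1.57 to 1.97; exact permutation p = 0.8). With HuD-OE 2 left out it was 1.08 and with WT 3 left out -0.23.

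CircRNA 19101 had levels of 2.76, -0.46 and 3.01 in HuD-OE and of 2.49, 1.90 and 0.64 in WT. The order of the arrays was that of 010239, with HuD-OE 2 lowest. The log2 fold change was 0.09 (SE 0.93, 95% interval -2.05 to 2.22; exact permutation p = 1), 1.20 without HuD-OE 2 and -0.43 without WT 3.

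CircRNA 26702 had levels of 1.74, 0.02 and 2.29 in HuD-OE and of 1.87, 0.92 and 0.37 in WT. HuD-OE 2 was again the lowest array, and WT 1 lay above HuD-OE 1. The log2 fold change was 0.30 (SE 0.65, 95% interval -1.20 to 1.79; exact permutation p = 0.8), 0.96 without HuD-OE 2 and -0.04 without WT 3. For these 3 circRNAs the intervals include both a rise and a fall, so the arrays do not settle a direction.

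**Figure D2:**
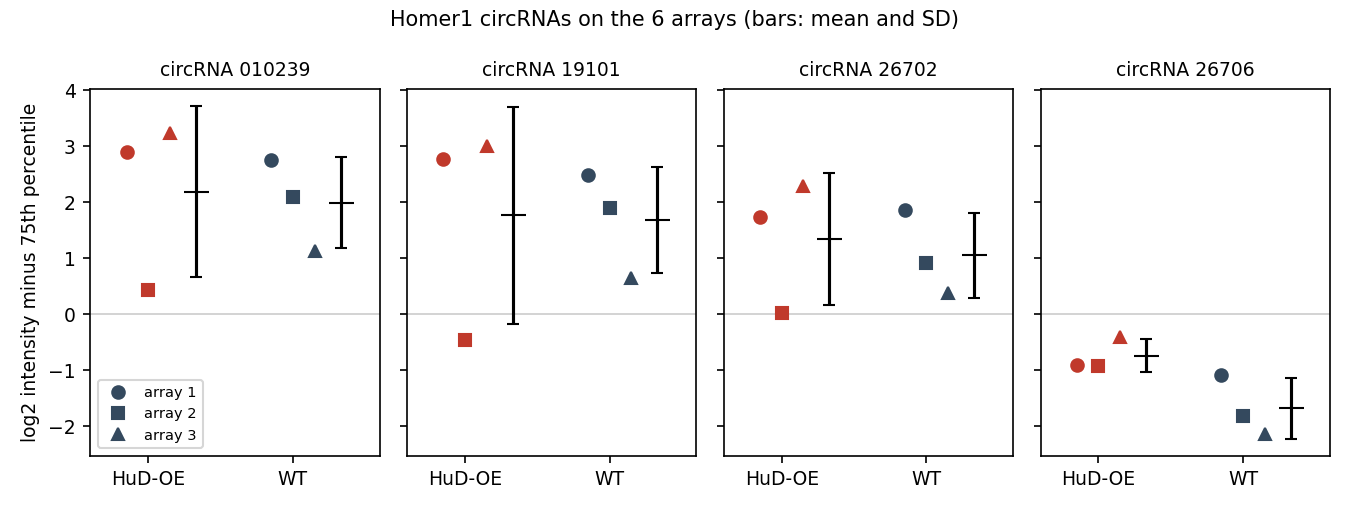
Level of each Homer1 circRNA (log2 processed intensity minus the array's 75th percentile, vertical axis) on the 3 HuD-OE arrays (red) and the 3 WT arrays (dark blue), with circles, squares and triangles for arrays 1, 2 and 3 and the mean and SD beside them. HuD-OE 2 is the lowest array for 010239, 19101 and 26702, and only for 26706 do the genotypes not overlap.

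**Figure D3:**
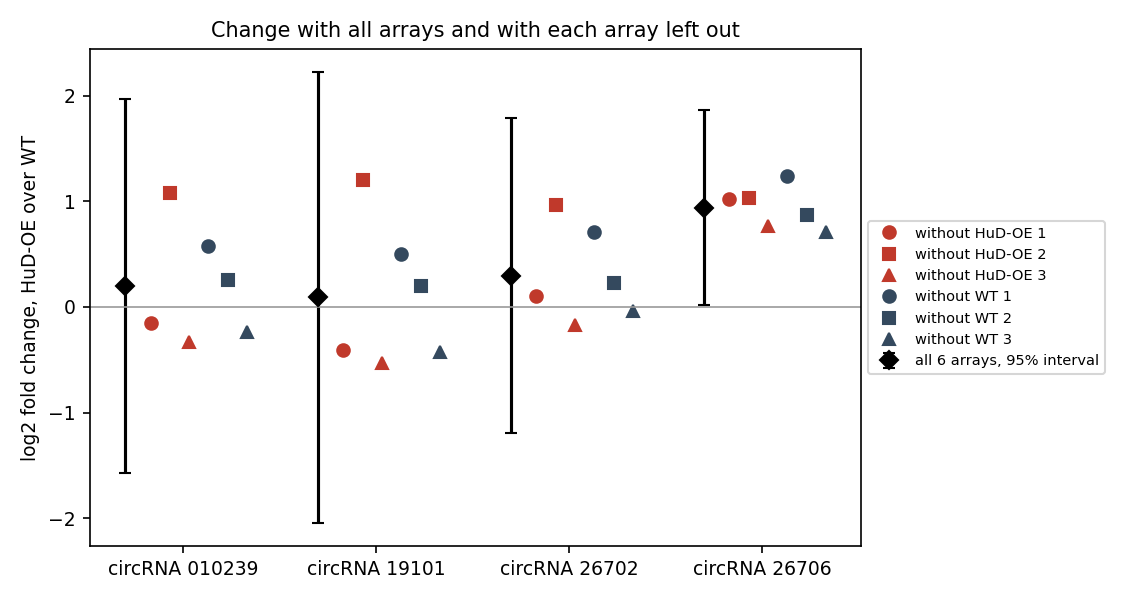
Log2 fold change of each Homer1 circRNA, HuD-OE over WT, with all 6 arrays (diamond, with the 95% interval from limma) and with 1 array left out (red, a HuD-OE array; dark blue, a WT array). The values for 26706 stay between 0.71 and 1.24, and those for the other circRNAs lie on both sides of 0.

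The 4 circRNAs were then compared with each other within an array, where the scaling of the array cancels. The level of 010239 minus that of 26706 was 3.80, 1.35 and 3.64 in HuD-OE and 3.83, 3.92 and 3.27 in WT. On 5 arrays this difference stayed within 3.27 to 3.92, and on HuD-OE 2 it was smaller. The level of 26702 minus that of 26706 was 2.65, 0.94 and 2.68 in HuD-OE and 2.95, 2.74 and 2.51 in WT, with HuD-OE 2 again apart.

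Between genotypes, the change of 010239 differed from that of 26706 by -0.74 (95% interval -3.01 to 1.53; exact permutation p = 0.5), that of 19101 by -0.85 (-3.82 to 2.12; exact permutation p = 0.6) and that of 26702 by -0.64 (-2.28 to 0.99; exact permutation p = 0.4). After Benjamini-Hochberg adjustment over the 6 pairs of circRNAs, every p was 0.9 (exact permutation tests, two-sided). Without HuD-OE 2 these 3 differences were 0.05, 0.18 and -0.07. The 3 circRNAs with the shared run differed from each other in change by 0.11 (010239 minus 19101), -0.10 (010239 minus 26702) and -0.21 (19101 minus 26702).

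**Figure D4:**
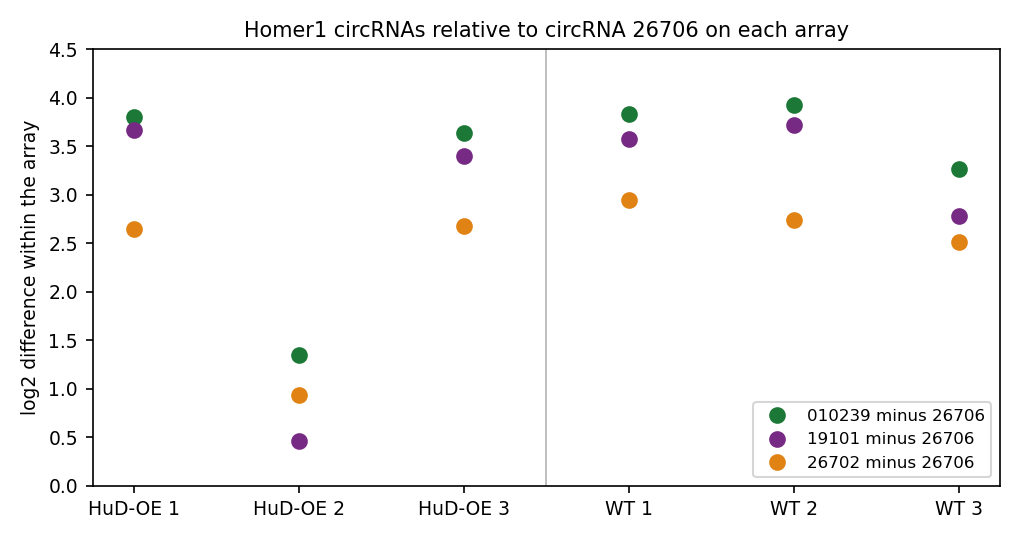
Log2 difference within each array between circRNA 010239, 19101 or 26702 and circRNA 26706 (vertical axis), for the 6 arrays along the horizontal axis. All 3 differences are smallest on HuD-OE 2, where they are 1.35, 0.46 and 0.94.

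HuD-OE 2 was examined further after these values were seen. The level of 010239 on HuD-OE 2 was 2.64 below the mean of HuD-OE 1 and 3, that of 19101 was 3.35 below and that of 26702 was 1.99 below, whereas that of 26706 was 0.27 below. Over the 13391 tested circRNAs with a value on every HuD-OE array, the median of this difference was 0.16. Of these, 2.45%, 0.829% and 5.88% were as low as 010239, 19101 and 26702. Among the 1808 circRNAs whose mean WT level, from arrays that do not enter this difference, was at least that of 26702, the shares were 3.76%, 1.94% and 7.02%. Of the marker circRNAs, Slc1a2 had levels of 2.14, 0.77 and 2.19 in HuD-OE, and each Arpp21 circRNA was also lowest there on HuD-OE 2. Bcl11b differed little (0.75, 0.67 and 0.71), and a Foxp1 circRNA was not lowest on it (3.32, 3.18 and 2.32). A link of these to the Homer1 values was not tested. The part of HuD-OE 2 in the Homer1 values was not tested beyond leaving it out.

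**Figure D5:**
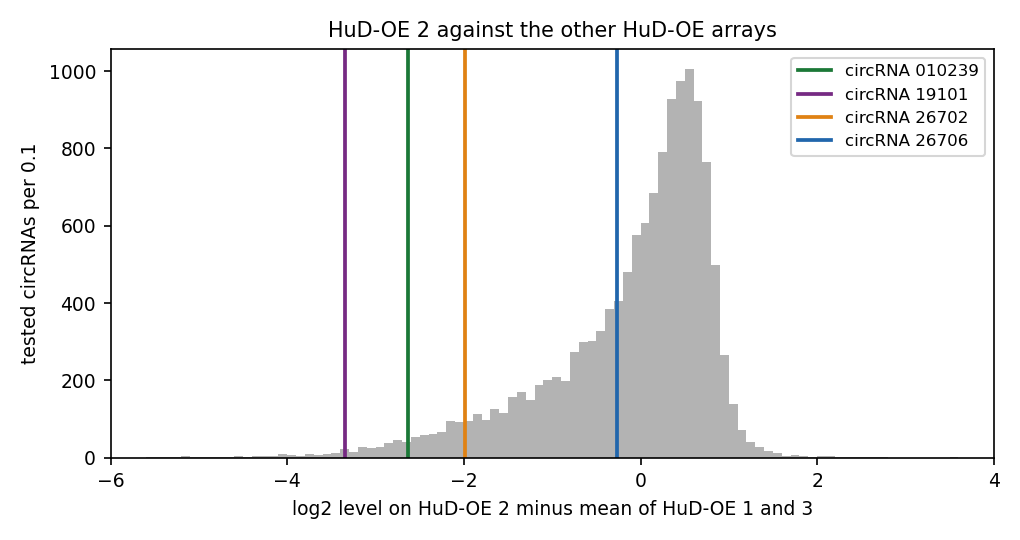
Histogram over the tested circRNAs of the log2 level on HuD-OE 2 minus the mean of HuD-OE 1 and 3 (horizontal axis; counts per bin of 0.1 on the vertical axis), with lines at the 4 Homer1 circRNAs. CircRNA 19101 lies furthest left at -3.35, and 26706 at -0.27 lies near the bulk.

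The profiles over the 6 arrays were compared with those of 712 other circRNAs that have a host gene in the tables used. The measure was the root mean square (RMS) difference of levels centred on each circRNA's own mean. A host gene was known for only 721 of 14236 circRNA probes. These were probes of the HuD-bound list or of the authors' tables of circRNAs changed in this comparison, so the search did not cover the array. The nearest to 010239 were circRNAs of Trim37 (24020, 0.15) and Rabep1 (001848, 0.15). Those nearest to 19101 were of Pak3, a kinase of the actin cytoskeleton (45771, 0.13), and Atp6v1h, a subunit of the vacuolar proton pump (018088, 0.18). The nearest to 26702 were of Cpsf6, a factor of mRNA 3′ end processing (22683, 0.13), and Dclk1, a microtubule-associated kinase (35365, 0.14). All 6 had their lowest level on HuD-OE 2, which follows from choosing them for likeness to profiles that are lowest there.

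For 26706 the nearest were circRNAs of Nlgn3, a postsynaptic adhesion protein (45634, 0.20), and Calm3, a calmodulin gene (19450, 0.20). Both were lowest on WT 3, as was 26706 itself. Among the Homer1 circRNAs, 010239 differed by 0.26 from 19101 and from 26702, and by 0.90 from 26706. CircRNAs 19101 and 26702, which also share the run, differed by 0.52. The median over the 712 circRNAs was 0.83 for 010239. Among other host genes, 31 pairs of circRNAs whose junctions share 20 or more bases had a median RMS difference of 0.35, and 165 pairs that share fewer had a median of 0.52.

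Among the other host genes with 4 circRNAs in the study's list, the log2 fold changes ranged over 1.23 for Anks1b, 0.68 for Camta1, 0.57 for Mboat2, 0.60 for Tulp4 and 1.32 for Ube2e2. The range for Homer1 was 0.85, from 0.09 to 0.94. Of the 20 tested circRNAs of the other 5 genes, none was past both limits, and at the shares over all circRNAs given above few or none would be. The 1 of 4 for Homer1 is therefore not shown to differ from these genes.

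The wider postsynapse was described with a list of 48 host genes of Homer1's partners and of the glutamatergic postsynapse, of which 16 had a paired circRNA. Most circRNAs with a known host gene come from the HuD-bound list, so other postsynaptic circRNAs of the array were not seen. Of its 24 tested circRNAs, none was past both limits in either direction and 14 (58.3%) had a log2 fold change above 0. Over all tested circRNAs, 2.49% were higher, 0.475% were lower and 61.8% lay above 0. The median of the list was 0.11, against 0.15 over all. The smallest unadjusted p of the list was 0.074 (limma), so no count at p under 0.05 arose.

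The receptor Grm5, a group I glutamate receptor that binds Homer proteins, had log2 fold changes of 0.40 (41820) and 0.38 (41814). CircRNA 41814 had levels of 0.92, -1.53 and 1.09 in HuD-OE and of 0.31, 0.09 and -1.06 in WT, with HuD-OE 2 lowest as for the 3 Homer1 circRNAs with the shared run. Its log2 fold change was 1.23 without HuD-OE 2 and -0.04 without WT 3. Dlgap1 and Dlgap3, scaffolds between PSD-95 and Shank, had log2 fold changes of -0.09 (30835) and -0.14 (011419), and of 0.29 (37660) and 0.05 (37659).

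The highest log2 fold changes of the list were 1.03 for Dlg1 (017645), a scaffold related to PSD-95, 0.84 for Ppp3ca (36214), a catalytic subunit of calcineurin, and 0.81 for Camk2d (36123), a calcium-dependent kinase. In all 3 WT 3 was the lowest array, and without it the values were 0.44, 0.18 and 0.17. The lowest were -1.49 for Cacng3 (42273), an AMPA receptor auxiliary subunit, -0.52 for Camk2a (31794) and -0.14 for Dlgap1 (011419). For Cacng3 the spot on HuD-OE 2 was flagged as an outlier and left out. Camk2a, whose promoter drives the transgene, had levels of 2.35, -1.85 and 2.56 in HuD-OE and of 2.30, 1.49 and 0.84 in WT for 31794. Without HuD-OE 2 its log2 fold change was 0.91, and that of the other Camk2a circRNA (31795) was 0.16 with all arrays, 1.21 without HuD-OE 2 and -0.57 without WT 3.

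The 4 Homer1 circRNAs were chosen from the study's list of HuD-bound circRNAs, so their place in it is not a result. The copy used here holds 658 circRNAs, fewer than the study describes, and 657 of them were tested, so the counts and median below are those of this copy. In HuD-OE 11 of these were higher past both limits, 26706 among them, and none was lower, which are 1.67% and 0% against 2.49% and 0.475% of all tested circRNAs. Without the Homer1 circRNAs, 10 of 653 (1.53%) were higher. The order of the shares higher was not stable. Without WT 1 they were 8.27% of the list and 5.63% of all, and without HuD-OE 2 they were 3.35% and 2.68%. The order was the opposite without HuD-OE 1, at 0.763% and 1.39%, and without HuD-OE 3, at 0.766% and 1.31%. With all arrays, the median log2 fold change of the list was 0.27, against 0.15 over all tested circRNAs, and 74.4% against 61.8% lay above 0. The median of all was -0.006 without WT 3, -0.039 with the filter on all 6 arrays and 0.26 without WT 1. That of the list was not computed in other settings, so whether it stays above the median of all was not tested.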

How the data were processed

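The authors deposited, for each array, scanner values made with Feature Extraction 11.0.1.1, in which intensity is spot brightness on a linear scale, not scaled between arrays. Their 2 tables of changed circRNAs also hold fold changes, p-values and 24 single-sample columns. Only annotation and the names of their probes were used from them. Outlier spots were set aside and log2 processed intensities were scaled by each array's 75th percentile. CircRNAs well above background on at least 3 of 6 arrays, with at least 1 value per genotype and 3 in all, were tested with limma 3.58.1 in R 4.3.3 with Benjamini-Hochberg adjustment. This minimum was relaxed, after results had been seen, from 2 values per genotype, under which 13451 circRNAs were tested instead of 13460. The limma fit and the exact permutation test were tested on simulated data. Normexp used median in place of mean spot intensities. Homer1 circRNAs, 3 postsynaptic circRNAs at each end of the list, every Grm5 and Dlgap circRNA, and the 2 nearest profiles were named by rule. The members and lists were chosen with earlier results of these data known. The labels do not say whether the 3 samples of a genotype are separate mice, so p-values measure the spread between samples, and 3 arrays per genotype limit the precision. Figures used matplotlib 3.10.9 in Python 3.11.15.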

Additional observations from a re-analysis of the deposited data

How the results depend on the processing

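CircRNA 26706 kept its direction under every alternative run. It was past both limits after quantile normalization (0.78), without a filter, with the filter on all 6 arrays, with outlier spots kept and with trend and robust settings. It was not after normexp with an offset of 50 (0.32), which by its construction pulls log2 differences of dim spots toward 0. Nor was it after median centring (0.76) or with a 75th percentile taken only over probes that all 6 arrays detected (1.04). It was also not in the 5 arrays of 1 scan (0.71) or by the methods' t-test (0.94). The count of Homer1 circRNAs past both limits was 0 in each of these settings. With slide row as a block, which leaves only WT 1 to compare with, the log2 fold change of 26706 was 0.34. With each array left out in turn it ranged from 0.71 to 1.24, past both limits only without WT 1, and the count ranged from 0 to 1. The cause was not tested.

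The correlations of deviations of same-numbered arrays were -0.17, -0.19 and -0.56. The dimmest array of each genotype bore a different replicate number, so low correlations could arise whether or not the numbers mark pairs. These correlations therefore do not decide whether the replicate numbers pair the arrays. With the replicate block, the log2 fold change of 26706 was 0.94 but no longer past both limits, the count of Homer1 circRNAs higher was 0, and 5 HuD-bound circRNAs were higher and 1 lower (0.761% and 0.152% of the list, against 1.44% and 0.349% of all).

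With slide row as a block, 010239, 19101 and 26702 turned to -0.56, -0.72 and -0.52, and in the 5 arrays of 1 scan to -0.23, -0.43 and -0.043. With each array left out, they ranged from -0.33 to 1.08, from -0.53 to 1.20 and from -0.17 to 0.96. Median centring gave -0.091 for 19101. Quantile normalization gave 0.49, 0.25 and 0.39. In settings chosen after seeing the data, leaving out both HuD-OE 2 and WT 3 gave 0.64, 0.69 and 0.62, and 0.80 for 26706, with a count past both limits of 0. Quantile normalization without HuD-OE 2 gave 1.496 for 010239, 1.47 for 19101, 1.12 for 26702, and 0.87 for 26706, which was past both limits. Needing 2 values in each genotype changed no Homer1 call.

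The difference in change between 010239 and 26702 was 0.10 after quantile normalization. The differences of 010239, 19101 and 26702 from 26706 were -0.74, -0.85 and -0.64, but -0.10, -0.13 and -0.03 after normexp with the same offset and -0.29, -0.54 and -0.39 after quantile normalization. With each array left out, differences ranged from -0.13 to 0.25 (010239 minus 19101), -0.26 to 0.12 (010239 minus 26702), -1.18 to 0.048 (010239 minus 26706), -0.51 to 0.24 (19101 minus 26702), -1.43 to 0.18 (19101 minus 26706) and -0.94 to -0.07 (26702 minus 26706).

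Of 24 postsynaptic circRNAs, 1 was lower after normexp, where 2.23% of all circRNAs were, and 0 to 1 were past both limits in each direction with an array left out. Without WT 1 it was 1 in each direction, where 5.63% of all were higher and 5.47% lower. Lower HuD-bound circRNAs numbered 2 after normexp (0.304% against 2.23% of all) and 3 after quantile normalization (0.457% against 0.743%). They numbered 1 after median centring (0.152% against 0.669%) and with the filter on all 6 arrays (0.201% against 0.881%). It was also 1 in the 5 arrays of 1 scan (0.152% against 0.208%) and with trend and robust settings (0.152% against 0.267%). With an array left out they were 5 to 54 higher and 0 to 5 lower, with the most without WT 1, where 8.27% and 0.766% of the list stood against 5.63% and 5.47% of all. The share higher was above that of all circRNAs after normexp (1.37% against 0.936%), with the filter on all 6 arrays (1.81% against 1.55%), without HuD-OE 2 or WT 1, and in both settings chosen after seeing the data that leave out HuD-OE 2.

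Over all circRNAs, 335 higher and 64 lower became 126 and 300 after normexp, 315 and 100 after quantile normalization and 259 and 90 after median centring. They became 132 and 75 with the filter on all 6 arrays, 194 and 47 with the replicate block and 276 and 28 in 1 scan. By the methods' t-test they were 272 and 20, and with trend and robust settings 300 and 36. The higher ones made up 84.0% with the percentile scaling, 29.6% after normexp and 74.2% after median centring. With an array left out they were 173 to 749 higher and 2 to 728 lower, the most without WT 1. The median log2 fold change of all circRNAs was 0.15, but 0.0039 after quantile normalization, -0.03 after median centring and 0.25 when only detected probes set the percentile. It was -0.039 with the filter on all 6 arrays and -0.012 with slide row as a block. Leaving out WT 3 gave -0.006, and leaving out any other array gave 0.11 to 0.26.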
